A study of Arabidopsis thaliana with 6 samples.

Results

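The REVEILLE (RVE) genes studied here were RVE1 (AT5G17300), RVE2 (AT5G37260), RVE7 (AT1G18330), RVE4 (AT5G02840), RVE6 (AT5G52660) and RVE8 (AT3G09600) of Arabidopsis thaliana. Their regions were every enriched region of 4 deposited ChIP-seq lists whose maximum lay inside the gene or within 3000 bp of it. This gave 20 of the 1563 regions in the lists, at 5 of the 6 genes. RVE6 had none in any list, and none within 5000 bp either. The chromatin came from 15-day-old whole seedlings kept under a daily cycle of 12 h light and 12 h dark, and was precipitated with an antibody to the HA tag. The tagged plants were prr7-3 PRR7::HA-PRR7 #151, a single transgenic line in which the PRR7 promoter drives HA-tagged PRR7 in the prr7-3 mutant, and the untagged prr7-3 mutant was the background for the antibody. Both groups therefore carry prr7-3. HA-PRR7 was precipitated in experiment 1 (685 regions) and in experiment 2, whose single sample has 2 lists named KC (380 regions) and TL (355 regions), and prr7-3 had a list from experiment 1 (143 regions). KC and TL count as 1 replicate, so each experiment holds 1 HA-PRR7 immunoprecipitate (IP), and no value below has a replicate error.

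PRR7 is a pseudo-response regulator, a clock protein that represses transcription of morning genes such as CCA1 and LHY during the day. The RVE proteins are transcription factors with a single MYB-like domain related to that of CCA1 and LHY, and they bind the evening element, a short sequence found in promoters of evening-expressed clock genes. RVE4, RVE6 and RVE8 activate evening genes together with the LNK coactivators. RVE1 links the clock to auxin synthesis and stem elongation, RVE7 is also EPR1, named as an early phytochrome-responsive gene, and RVE2 is also CIR1.

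HA-PRR7 regions were found at 3 of 6 RVE genes in experiment 1 (RVE1, RVE7 and RVE8), where 5.01% of all protein-coding genes had one. In experiment 2, list KC had regions at 4 of 6 (RVE1, RVE2, RVE7 and RVE4) against 2.9% of all genes, and TL had them at the same 4 against 2.71%. Genes with a region in both experiment 2 lists made up 2.34% of all genes. RVE1 and RVE7 had a reproducible region, meaning a region called in experiment 1, in KC and in TL at overlapping positions and not in prr7-3, against 0.561% of all genes. Untagged prr7-3 had a region at 0 of 6, and since 1.03% of all genes had one there, such a count says little. The counts describe single libraries and were not tested. The maximum lay inside the RVE gene in 2 of 3 regions of experiment 1, where 69.5% of all nuclear maxima were inside a protein-coding gene. It did so in 2 of 9 regions of KC, where 31.7% of all were inside, and in 2 of 8 of TL, where 32.4% were.

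**Figure D1:**
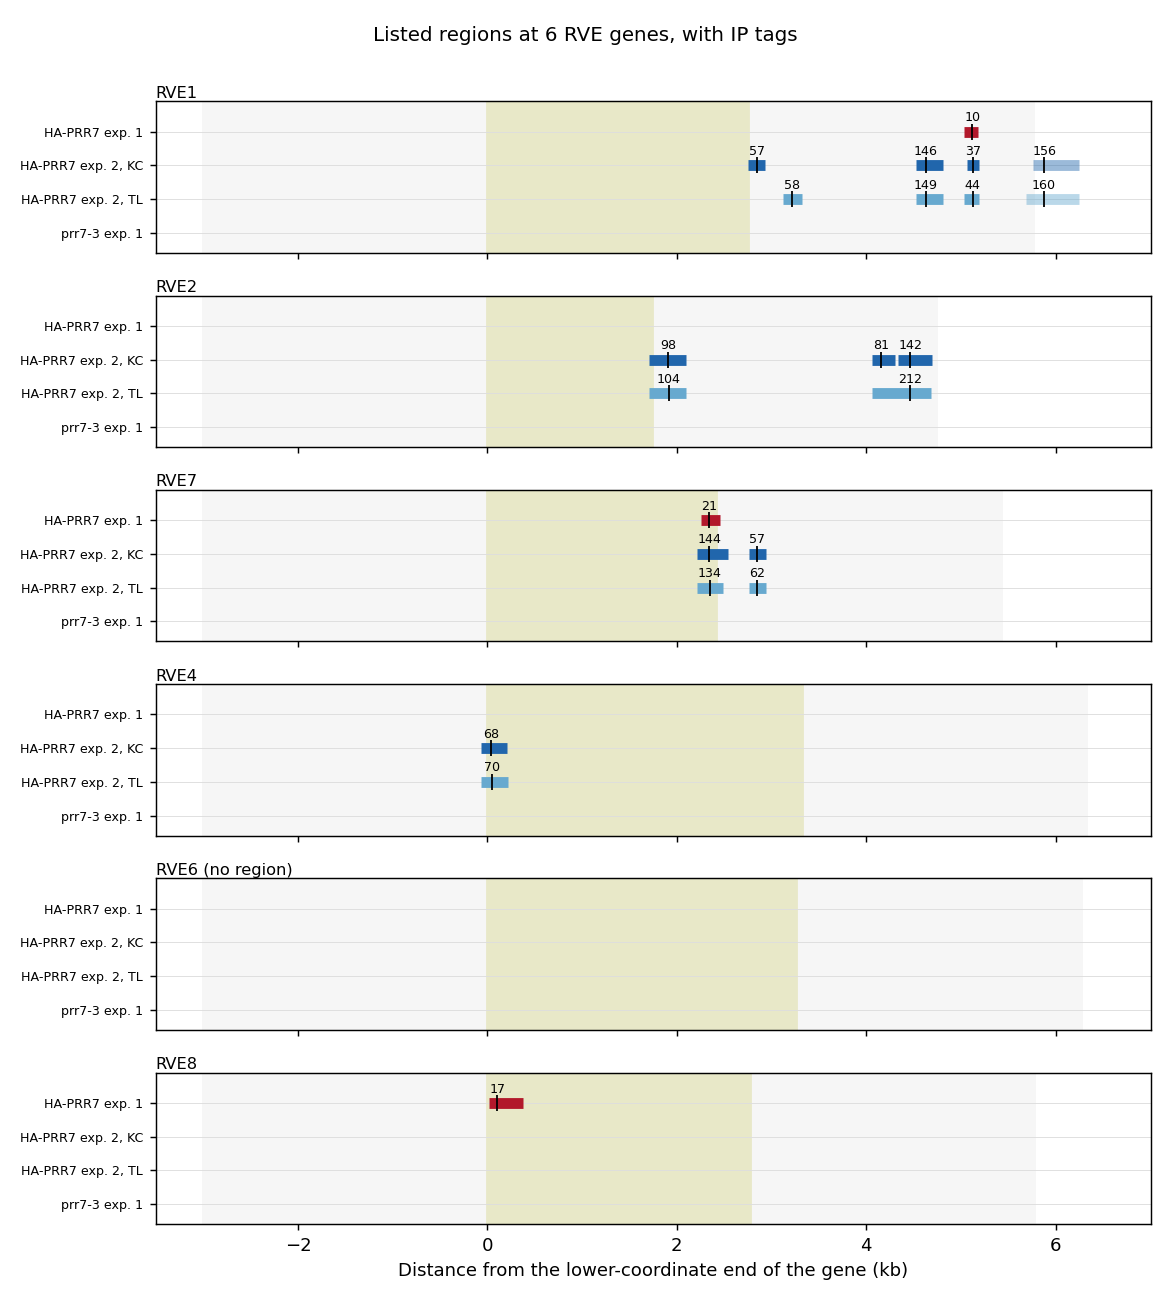
Regions of the 4 lists around the 6 RVE genes, drawn to scale against the distance from the lower-coordinate end of each gene in kb (coloured band: the gene; pale band: 3000 bp on either side; black tick: maximum of the region; number: IP tags; faded bars: the pair of regions beyond 3000 bp). RVE1, RVE2 and RVE7 carry several regions in experiment 2, RVE4 carries 1 at its lower end, RVE8 carries 1 in experiment 1 alone and RVE6 carries none.

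At RVE7, a region across the higher-coordinate end of the gene recurred in all 3 HA-PRR7 lists. In experiment 1 it lay on chromosome 1 at 6308067 to 6308274 (TAIR10) with 21 IP tags (95% Poisson interval 13 to 32.1) and 15 control tags before scaling. In KC the region at 6308025 to 6308353 held 144 IP tags (121 to 170), and in TL the one at 6308027 to 6308302 held 134 (112 to 159), both with 0 control tags. The maximum was at the same base in experiment 1 and KC, 87 bp inside the gene end, and 7 bp away in TL. Experiment 1 and KC differed by a median of 23 bp over the 75 nuclear regions they share one to one (interquartile range 12 to 41.5 bp). Fold enrichment, which divides the IP signal by the control signal (or by 1 where the control is below 1), was 12.3 in experiment 1 (rank 106 of 685), 26.7 in KC (rank 30) and 24.8 in TL (rank 30). The control signal there was 1.42 in experiment 1 and 0 in KC and TL. The KC and TL folds are thus the IP signal itself, unlike that of experiment 1. The strand correlation listed for this region was 0.190 in experiment 1, 0.371 in KC and 0.334 in TL. The list medians were higher, at 0.663, 0.746 and 0.743. In TL its listed shift was -200, against a list median of 58.

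RVE7 had a further region in experiment 2 alone, in the 681 bp between it and its neighbour AT1G18335. It held 57 IP tags in KC (6308576 to 6308754, 13.7-fold) and 62 in TL (6308574 to 6308754, 14.6-fold), with its maximum 415 and 419 bp beyond the gene. AT1G18335 was nearer to this maximum than RVE7, at 267 bp in KC and 263 bp in TL. Both RVE7 regions lay at the same end of the gene, and the maxima stood 502 bp apart in KC and 499 bp apart in TL.

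RVE1 carried 3 regions in KC, 3 in TL and 1 in experiment 1, all on its higher-coordinate side, in the 3485 bp that separate it from UGP2, a gene for UDP-glucose pyrophosphorylase. The highest lay on chromosome 5 at 5694748 to 5695035 in KC, 1863 bp from RVE1, with 146 IP tags (123 to 172), and at 5694746 to 5695035 in TL, with 149 tags (126 to 175). It ranked 55 of 380 in KC and 47 of 355 in TL by IP tags. Its maximum was nearer to UGP2, at 1623 bp in KC and 1625 bp in TL, than to RVE1. No region of experiment 1 overlapped this highest region. The region that did recur held fewer tags in KC and TL, and its maximum stood 501 bp farther out in KC: 5695257 to 5695404 in experiment 1 (10 IP tags, 4.80 to 18.4, against 9 control tags before scaling), 5695284 to 5695412 in KC (37 tags) and 5695255 to 5695411 in TL (44 tags).

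The recurring RVE1 region was among the lowest of KC and TL by IP tags and q value, and near the middle of experiment 1. In experiment 1 it ranked 290 of 685 by both measures, with 10 IP tags, the list median. Its KC region was last of 380 by both, and its TL region ranked 347 of 355. By fold enrichment it ranked 459 of 685 in experiment 1 (8.61-fold), 271 of 380 in KC (10.6-fold) and 216 of 355 in TL (11.3-fold), below the list medians of 10.2, 11.9 and 12.4. The maxima in experiment 1 and in KC and TL differed by 13 and 7 bp. In experiment 1 it stood 2351 bp from RVE1 and 1135 bp from UGP2, so RVE1 counts as a gene with a reproducible region only because every gene within 3000 bp was counted.

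Each experiment 2 list also had an RVE1 region close to the gene end, at different places. In KC it lay 84 bp from RVE1 (5692980 to 5693156, 57 IP tags) and in TL 445 bp from it (5693344 to 5693544, 58 IP tags), and the regions did not overlap. Their IP signals were 12.1 in KC (rank 235 of 380, list median 13.2) and 11.3 in TL (rank 266 of 355, list median 13.4). AT5G17305, a protein-coding gene that overlaps RVE1 in the gene table, shares all 3 RVE1 regions of each list. Just beyond the limit, 3113 bp from RVE1 in KC and 3107 bp in TL, stood a broad region with 156 and 160 IP tags, only 373 and 379 bp from UGP2, while the farthest RVE1 regions inside the limit were at 2364 bp in KC and 2358 bp in TL.

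RVE2 had regions in experiment 2 and none in experiment 1. Beside the gene, 167 bp from its higher-coordinate end in KC (chromosome 5, 14753051 to 14753443) and 170 bp in TL (14753054 to 14753446), a region held 98 IP tags in KC (79.6 to 119) and 104 in TL (85.0 to 126), with 0 control tags in both. Its listed strand correlation was 0.515 in KC and 0.210 in TL, below the list medians of 0.746 and 0.743. A larger block lay at 14755401 to 14756036 across the 2 lists, with every maximum 2411 bp or more from the gene. KC divided it into regions of 81 and 142 tags separated by 38 bp, with maxima 2411 and 2722 bp from RVE2, whereas TL listed it as 1 region of 212 tags with the maximum at 2717 bp. The summed tags were 223 in KC and 212 in TL. A lncRNA gene, AT5G05455, was nearer to this block than RVE2 (611 bp from the higher maximum in KC), and AT5G37270, the next protein-coding gene, stood 2123 bp from that maximum. The inner KC maximum was 922 bp from AT5G05455, 2411 bp from RVE2 and 2434 bp from AT5G37270. The block therefore cannot be assigned to RVE2 by position.

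**Figure D2:**
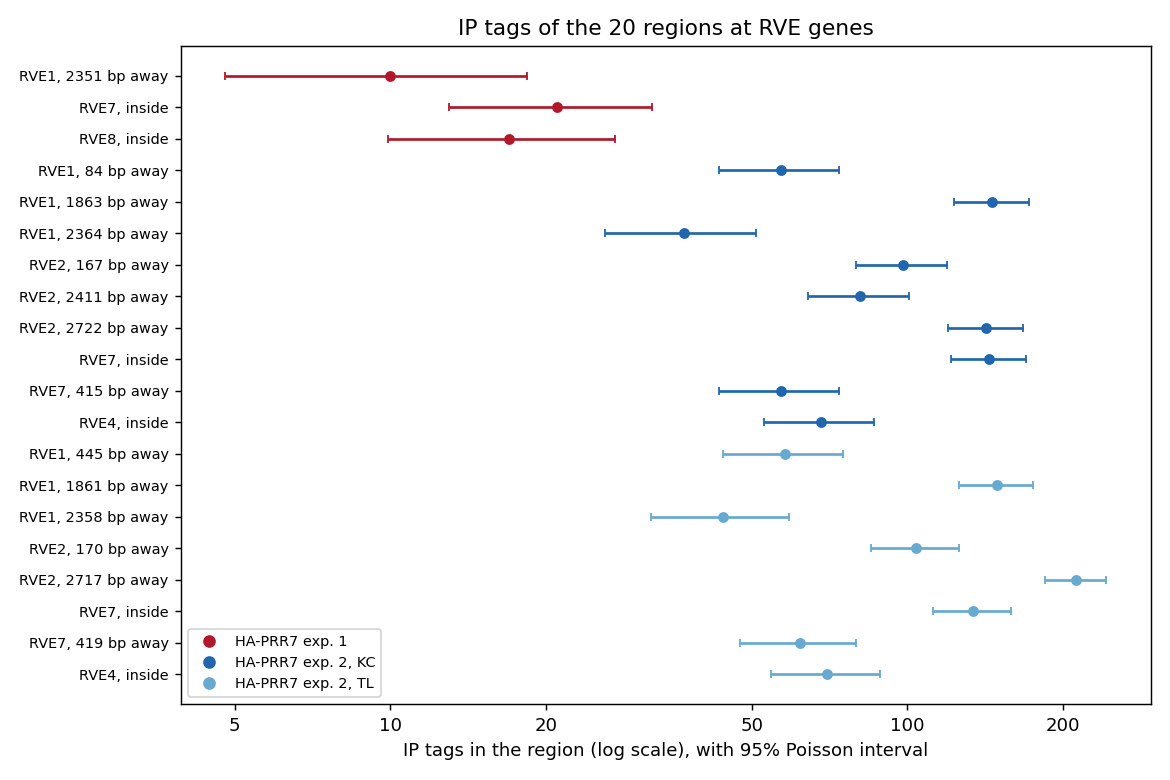
IP tags in each of the 20 regions on a log scale, with exact 95% Poisson intervals that cover counting error only, named by gene and by the distance of the maximum from it. Regions of experiment 1 hold 10 to 21 tags, while those of KC hold 37 to 146 and those of TL 44 to 212.

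The RVE4 region sat across the lower-coordinate end of the gene and appeared in experiment 2 alone. It spanned 648579 to 648855 on chromosome 5 in KC, with 68 IP tags (52.8 to 86.2) and 0 control tags, and 648580 to 648865 in TL, with 70 tags (54.6 to 88.4) and 0 control tags. The maxima were 41 and 44 bp inside the gene. At 11.9-fold in KC (rank 189 of 380) and 14.0-fold in TL (rank 130 of 355) it was close to the list medians of 11.9 and 12.4. AT5G02830 and the lncRNA gene AT5G00880 begin or end within 154 bp of the maximum in both lists.

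RVE8 was the reverse case, with a region in experiment 1 and in neither experiment 2 list. Its region covered 2946258 to 2946610 on chromosome 3 and held 17 IP tags (9.90 to 27.2) and 11 control tags before scaling, with the maximum 105 bp inside the lower-coordinate end of the gene. It was wide for its list, 353 bp against a median of 135 bp. By IP tags it ranked 62 of 685, but by IP signal it ranked 603, since its signal of 10.2 was just above the lowest of the list, 10.0005. Of 110 nuclear regions of experiment 1 with a signal within 2% of this, 6 overlapped a region of KC or TL (5.45%, exact Clopper-Pearson 95% interval 2.03% to 11.5%). Of 67 with IP tags within 20% of 17, 20 did (29.9%, 19.3% to 42.3%).

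The maxima at RVE7, RVE4 and RVE8 that fell inside a gene all lay within 105 bp of one of its ends. Among all nuclear maxima inside a protein-coding gene, 15.5% in experiment 1, 56.8% in KC and 58.4% in TL were within 200 bp of an end, against 7.41% in prr7-3. The gene table gives no strand, so which end is the transcription start was not determined here.

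In experiment 2 the regions at RVE1 and RVE2 were crowded on one side of each gene. Of 27444 protein-coding genes, 6 had 3 or more KC regions within 3000 bp (0.0219%), and RVE1 and RVE2 were among them. The others were AT5G17305, which shares the RVE1 regions, UGP2, which shares the outer ones, and CBF1 and DREB1A, which are neighbouring genes of cold-response activators. TL had 6 such genes too (0.0219%), among them RVE1 with AT5G17305 and UGP2, while RVE2 had 2 regions there because its outer block was listed whole. With 2 regions or more, RVE1, RVE2 and RVE7 were 3 of the 52 genes in KC (0.189%) and 3 of the 46 in TL (0.168%), and none of the 6 RVE genes was among the 62 in experiment 1 (0.226%).

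The same pattern held when the spaces between protein-coding genes were counted, which avoids counting a region for several genes. Of 23810 such intervals, 241 held a KC maximum (1.01%), and 3 or more maxima stood in 2 of them (0.0084%): the RVE1 to UGP2 interval with 4 and the RVE2 to AT5G37270 interval with 3. In TL, the RVE1 to UGP2 interval held 4 and was the only interval with 3 or more (0.0042%), and the RVE2 interval held 2. These intervals are wide, 3485 and 4844 bp, and 85.0% and 90.5% of all intervals are narrower. In the RVE1 to UGP2 interval, only the KC maximum 84 bp and the TL maximum 445 bp from RVE1 were nearer to RVE1. The other KC and TL maxima there were nearer to UGP2. In experiment 1 the RVE1 interval held 1 maximum, and the 2 intervals with 3 or more were 490588 and 440078 bp wide. The interval counts were made after the crowding had been seen.

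**Figure D3:**
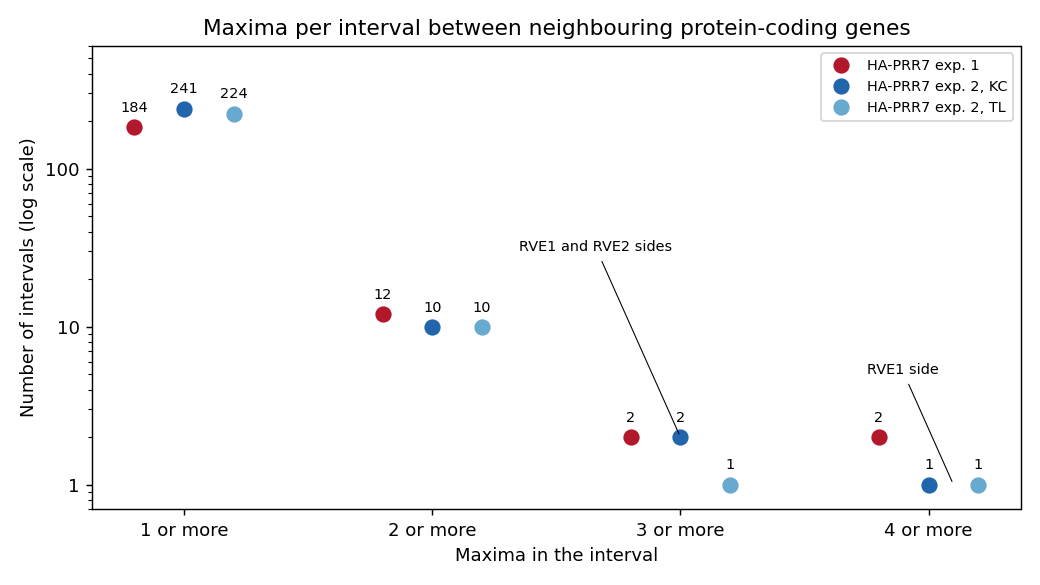
Number of intervals between neighbouring protein-coding genes that hold at least 1, 2, 3 or 4 region maxima, on a log scale, for HA-PRR7 experiment 1 and for lists KC and TL of experiment 2. Of 23810 intervals, those with 3 or more KC maxima are the ones beside RVE1 and RVE2, and the only one with 4 in KC and in TL is beside RVE1.

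IP tags at RVE regions were alike in KC and TL while fold enrichment was not always. Over the RVE places found in both lists, KC over TL tags ran from 0.841 at the recurring RVE1 region to 1.07 at the RVE7 gene end. The highest RVE1 region was 27.8-fold in KC and 6.49-fold in TL, ranks 25 and 308, although its IP signal was 27.8 in KC and 29.3 in TL and each list counted 1 control tag. The control signal at the maximum was 0.000119 in KC and 4.51 in TL. The inner part of the outer RVE2 block had the opposite form, with a KC control signal of 4.56, 1 control tag and 3.29-fold enrichment (rank 365 of 380). Over 292 nuclear regions shared one to one, 79 (27.1%) differed by more than 2-fold in enrichment between KC and TL, and 1 did so in IP tags.

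**Figure D4:**
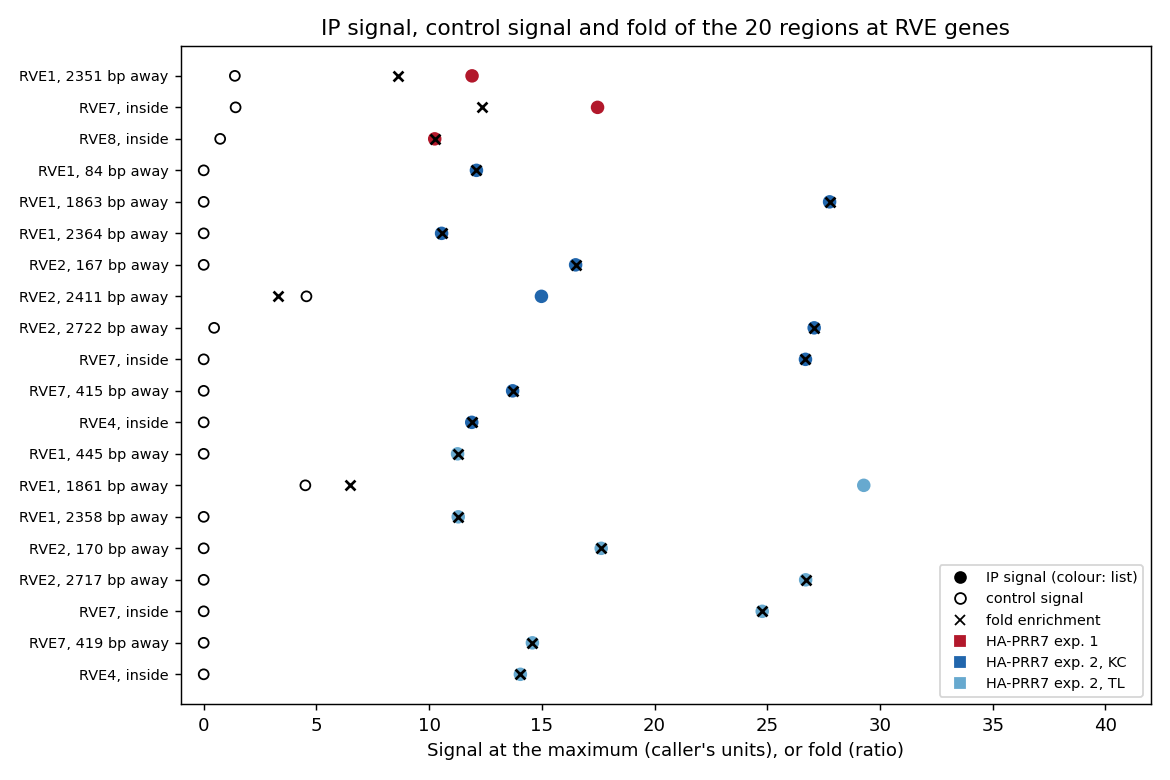
IP signal (filled, coloured by list), control signal (open) and fold enrichment (cross) at the maximum of the 20 regions. Fold equals IP signal where the control is below 1, and the highest RVE1 region in TL and the inner RVE2 region in KC fall to 6.49-fold and 3.29-fold where the control signal is 4.51 and 4.56.

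Regions of experiment 2 with as many tags as the highest RVE regions were called again in experiment 1 more often than those with as many as RVE4, by counts that were not tested. Of the 50 nuclear KC regions with tags within 20% of the highest RVE1 region, 20 overlapped a region of experiment 1 (40.0%, 26.4% to 54.8%), and that RVE1 region did not. For the higher RVE2 region of KC it was 20 of 52 (38.5%, 25.3% to 53.0%), again without RVE2, and for the RVE7 gene end 18 of 48 (37.5%, 24.0% to 52.6%), RVE7 included. For RVE4 it was 16 of 152 (10.5%, 6.14% to 16.5%). TL listed the outer RVE2 block as 1 region of 212 tags. Of the 18 nuclear TL regions with tags within 20% of it, 10 overlapped a region of experiment 1 (55.6%, 30.8% to 78.5%), and the block did not. The KC tag ranges used for RVE1, RVE2 and RVE7, set around 146, 142 and 144 tags, overlap almost wholly. Their shares are therefore not separate results. Absence of RVE2 and RVE4 from the list of experiment 1 shows only that no region was called there. Where a place was listed in both experiments, experiment 1 over KC tags was 0.146 at RVE7 and 0.27 at RVE1, beside a median of 0.127 (interquartile range 0.0951 to 0.168) over the 75 shared pairs.

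Of the rest of the CCA1, LHY and RVE family, 5 further genes were examined. CCA1 and LHY had regions in all 3 HA-PRR7 lists. They held 1054 and 299 IP tags in KC, where no RVE region held more than 146, and 82 and 29 in experiment 1, where none held more than 21. RVE3 (AT1G01520, also ASG4), a relative of RVE8, had a region in KC (139 IP tags, 15.8-fold) and in TL (141 tags, 16.0-fold) and none in experiment 1. Its maximum lay inside RVE3 and also inside the overlapping gene AN, on chromosome 1 at 190208 to 190651 in KC. RVE5 (AT4G01280) and AT3G10113, an RVE7-like gene, had no region in any list. In all, 7 of the 11 family genes had a region in both experiment 2 lists, against 2.34% of all genes, and 4 had one in all 3 HA-PRR7 lists (RVE1, RVE7, CCA1 and LHY), against 0.663%.

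Of the partners of RVE8, LNK2 and LNK3 had regions in all 3 HA-PRR7 lists, LNK4 in KC (389 IP tags) and LNK1 in TL (112 tags). Of 6 further clock genes, listed because RVE8 is known to activate several of them, PRR5, PRR9, GI and LUX had regions in all 3 lists, while TOC1 and ELF4 had none. Their KC regions held 170, 381, 486 and 255 IP tags in that order, all above the 146 of the highest RVE region in KC. The outer RVE2 block, divided in KC, summed to 223 tags there and was 1 region of 212 tags in TL. PRR5, with 165 tags in TL, was below this block in both lists, while PRR9, GI and LUX were above it. Of all protein-coding genes, 0.663% had a region in all 3 HA-PRR7 lists. None of these 15 family, partner and clock genes had a region in prr7-3, where 1.03% of all genes had one, so that count says little. These genes were listed with earlier results of the same data known, so their counts are a description.

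The regions most like each recurring RVE region were those with the nearest log10 ranks of fold enrichment over the 3 HA-PRR7 lists (2 samples, 67 other shared nuclear regions). For RVE7 (ranks 106, 30 and 30 in experiment 1, KC and TL) these were at BBX29 (122, 33 and 25), FER1 (97, 40 and 56) and STO (223, 32 and 33). These ranks depend on the measure: in experiment 1 the RVE7 region ranked 44 by IP tags and 42 by q value. Likeness by those ranks was not computed. For the recurring RVE1 region (459, 271 and 216) they were at RTFL17 (384, 294 and 176), AT5G09620 (337, 306 and 199) and HA1 (364, 201 and 236). Over KC and TL alone (1 sample, 293 other regions), the region nearest in rank to RVE4 (189 and 130) was at ATTPPA (181 and 142). The one nearest to the RVE2 region beside the gene (77 and 60) was inside AT1G45688 (82 and 60).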

How the data were processed

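Per the submitters' processing notes, Bowtie was used with the TAIR10 genome; the peak caller, its settings and its control library are not given in the sources. Each deposited list gives, per region, the IP and control signal, their ratio as fold enrichment, whole-number tag counts and a tag enrichment score. It also gives a shift, a strand correlation, and -log10 q and p scores, all as the authors' caller wrote them. These were used to describe and rank regions within a list. The fold equalled the ratio of the signals, with a floor of 1 on the control, in 100% of regions within 1%.

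Maxima were assigned to every protein-coding gene within 3000 bp (27444 genes, RefSeq table of TAIR10.1, without strand or sequence, its nuclear coordinates taken as those of TAIR10), with Python 3.11.15, pandas 2.3.3 and SciPy 1.17.1. Regions overlapped when they shared 1 bp or more. Intervals cover counting error only, and library depth is not in the files. Assignment and overlap were tested on simulated regions. Planned motif searches were not run, because no sequence was used here. The members, lists, rule for named genes (members, neighbours of their regions, family and pathway list, most alike regions) and alternatives were chosen with earlier results of these data known, and genes with 3 or more regions were named after their values were seen. Nothing states whether the experiments used separately grown plants. No region list of the prr7-3 IP of experiment 2 was used here, and whether that library served as a control is not given in the sources.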

Additional observations from a re-analysis of the deposited data

How the results depend on the processing

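Of 54 gene counts recomputed under other settings, 40 stayed within 1.5 times of the reported count. Some of the 40 could not move. Using the position of the peak line changed nothing by construction, since it was the maximum in every region. The prr7-3 count of 0 could not change under any stricter setting. Counting maxima inside the gene only gave 2 genes in KC, 2 in TL and 2 in both (RVE4 and RVE7). The counts of genes with a region in all 3 HA-PRR7 lists and with a reproducible region were 1 each (RVE7 alone) within 1000 bp, inside the gene, with the nearest protein-coding gene only, and with folds at or above the list median. With -log10 q at or above the median, the count with a reproducible region was also 1. RVE1 thus rests on a region 2351 bp away in experiment 1 and nearer to UGP2, with a fold below the median of each list. Leaving out each replicate in turn gave 3 to 4 genes for both counts, fewer lists being required by construction. A limit of 5000 bp, chosen after seeing the data, and a reciprocal overlap of 50% moved no count beyond 1.5 times. Of 20 folds, 18 were lower as tag enrichment, and ranks moved beyond 1.5 times in 13 of 20 regions by q value and 16 by IP tags. No paired analysis was possible because region lists allow no model over replicates. Tag numbers limit precision in experiment 1, where RVE regions hold 10 to 21 IP tags, and control tags limit that of folds in experiment 2, where 86.1% of KC and 88.2% of TL regions hold 0 or 1 control tags.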
